A study of Mus musculus with 35 samples.

Results

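Nr4a1, Nr4a2 and Nr4a3, which code for the NR4A family of orphan nuclear receptors, and Egr1, which codes for a zinc-finger transcription factor, were followed through bulk 3′ RNA sequencing of CD8 T cells from mouse liver and spleen. These 4 genes were taken by symbol from a table of 22865 genes. The cells came from C57BL/6 mice of 13 months that received the diets labelled CD-HFD or ND, and all groups share this strain and age. CD8 T cells of the liver were sorted into a fraction with and a fraction without the chemokine receptor CXCR6 (CXCR6pos and CXCR6neg), and those of the spleen were the fraction without the receptor CX3CR1 (CX3CR1neg). In all 32 libraries were compared. CXCR6pos cells gave 5 libraries under CD-HFD and 6 under ND, CXCR6neg cells 6 under CD-HFD and 4 under ND, and spleen CX3CR1neg cells 6 under CD-HFD and 5 under ND. Nothing in the labels ties a replicate to its own animal. A p-value here therefore reflects only the spread among these libraries, which may be technical. In bulk samples, fewer cells of a type and less RNA per cell cannot be told apart.

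Total counts ran from 15633 to 978896 a library, with a median of 308123, and the shallowest were CD-HFD CXCR6pos replicate 5 (57168) and, lower still, ND CXCR6pos replicate 1 (15633). Levels are given as CPM, a gene's share of the counts of its library, after scaling by the trimmed mean of M values (TMM). All 7 markers of T cells, among them Cd3e, Cd8a and Cd8b1, were detected in every group. Their summed level had medians of 6651 to 9795 CPM. A column labelled as replicate 1 of ND liver CXCR6neg and one labelled as replicate 6 of ND spleen held identical counts and entered no comparison. The library labelled ND CXCR6pos replicate 6 had the lowest Cxcr6 level of its group (201 CPM), and the library labelled ND CXCR6neg replicate 4 had the highest of its own (450.0 CPM), so that the 2 ND liver fractions overlapped in the gene of their gate. Without those 2 libraries, no call on Nr4a1, Nr4a2 or Egr1 given below changed.

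NR4A receptors are immediate-early genes. They are transcribed within a short time of T cell receptor stimulation, through calcium, calcineurin and the factors MEF2, NFAT and CREB. They act largely without a known ligand, so that their abundance is held to be one determinant of their activity. Only RNA was measured here. In CD8 T cells they are known for marking recent receptor signalling and for their part in the exhausted state that follows lasting antigen exposure. EGR1 is induced in parallel, mainly through the ERK kinases and the serum response factor, and activates genes of growth and differentiation.

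The region around the transcription start is shown for the NR4A genes because response elements for CREB in it are the textbook route of their induction. RefSeq promoter windows of GRCm38.p6, from 250 bases before to 50 after the start, were taken for these 3 of the 4 genes. No window of Egr1 was searched. They cover chr15:101266596-101266895 on the plus strand for Nr4a1, chr2:57123954-57124253 on the minus strand for Nr4a2 and chr4:48045055-48045354 on the plus strand for Nr4a3. The Nr4a1 window lies inside the gene, whose annotated extent begins at 101254269 (GENCODE M21). It thus surrounds an internal start, and the outermost start of Nr4a1 is not shown. Each is written 5′ to 3′ on the strand of its gene, and capitals mark TGACG, the core of the cyclic AMP response element, and its reverse complement CGTCA.
Nr4a1: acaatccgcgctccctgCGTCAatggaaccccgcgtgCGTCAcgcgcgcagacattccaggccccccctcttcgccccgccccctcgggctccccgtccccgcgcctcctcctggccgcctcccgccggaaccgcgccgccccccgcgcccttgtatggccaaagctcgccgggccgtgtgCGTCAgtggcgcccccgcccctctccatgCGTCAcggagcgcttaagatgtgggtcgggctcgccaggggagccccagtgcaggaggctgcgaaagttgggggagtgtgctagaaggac
Nr4a2: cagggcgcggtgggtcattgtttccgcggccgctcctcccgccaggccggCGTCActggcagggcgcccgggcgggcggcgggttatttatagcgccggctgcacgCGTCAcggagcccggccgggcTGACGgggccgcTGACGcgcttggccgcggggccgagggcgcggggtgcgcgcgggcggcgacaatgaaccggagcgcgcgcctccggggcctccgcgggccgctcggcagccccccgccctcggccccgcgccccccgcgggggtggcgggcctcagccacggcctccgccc
Nr4a3: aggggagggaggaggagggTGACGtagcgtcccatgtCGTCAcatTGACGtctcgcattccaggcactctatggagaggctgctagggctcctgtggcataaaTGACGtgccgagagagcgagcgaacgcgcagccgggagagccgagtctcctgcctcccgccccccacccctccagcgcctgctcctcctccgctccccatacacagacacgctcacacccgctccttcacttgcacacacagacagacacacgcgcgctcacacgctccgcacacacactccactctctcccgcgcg
Each of the 3 windows held 4 matches to TGACG on either strand. Of all 32851 windows of this length, 20.8% held at least 1 match and 0.231% held at least 4. The full palindrome TGACGTCA was in none of the 3 (1.79% of all windows). The monomer site of NR4A receptors, AAAGGTCA, was also in none of them (1.51% of all windows), nor was the EGR site GCGTGGGCG (0.612%). The NFAT core GGAAA, which 61.3% of all windows held, occurred 1 time, in Nr4a2. These matches describe the letters only, and motifs were searched on both strands.

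Nr4a1 (chromosome 15, 101254269 to 101274795, plus strand, GENCODE M21 on GRCm38), which codes for the receptor NUR77, was the most abundant of the 4 in all liver groups but one. In CD-HFD CXCR6pos its levels were 165, 229.5, 324, 424 and 283 CPM, and in ND CXCR6pos the lowest, median and highest were 295, 643 and 700.2 CPM. In CD-HFD CXCR6neg they were 335, 392 and 664 CPM, and in ND CXCR6neg the libraries had 474, 434, 509 and 634 CPM. In CD-HFD spleen they were 4.86, 15.9 and 30.1 CPM, and in ND spleen the libraries had 47.1, 23.9, 25.1, 13.8 and 18.8 CPM. All liver libraries lay above all spleen libraries, and CD-HFD CXCR6pos lay lowest among the liver groups. It overlapped with CD-HFD CXCR6neg but not with ND CXCR6neg. With ND CXCR6pos it overlapped only through replicate 1 of that group, the shallowest library (295 CPM from 6 counts). Ordered by mean level, ND CXCR6pos came first, then ND CXCR6neg, CD-HFD CXCR6neg, CD-HFD CXCR6pos, ND spleen and CD-HFD spleen. The only neighbours in that order whose libraries did not overlap were CD-HFD CXCR6pos (285 ± 97.8 CPM, SD, n = 5) and ND spleen (25.8 ± 12.8 CPM, n = 5).

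Nr4a2 (chromosome 2, 57106830 to 57124003, minus strand) codes for the receptor NURR1 and was highest in CD-HFD CXCR6pos. There its levels were 419, 368, 486, 441 and 336 CPM, against 49.2, 139 and 243 CPM as lowest, median and highest in ND CXCR6pos. In CD-HFD CXCR6neg they were 48.3, 130.0 and 158 CPM, and in ND CXCR6neg the libraries had 180.1, 113, 94.0 and 53.1 CPM. In CD-HFD spleen they were 6.01, 7.94 and 21.9 CPM, and in ND spleen the libraries had 7.86, 5.12, 17.9, 3.07 and 12.5 CPM. The 5 libraries of CD-HFD CXCR6pos stood above every other library of the study. ND CXCR6pos, CD-HFD CXCR6neg and ND CXCR6neg followed in that order and overlapped, as did CD-HFD spleen and ND spleen after them, with a gap between liver and spleen. The lowest value of ND CXCR6pos rests on 1 count and that of CD-HFD CXCR6neg on 4 counts.

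Egr1 (chromosome 18, 34859823 to 34864984, plus strand) had levels of 59.1, 77.6, 112, 124 and 53.1 CPM in CD-HFD CXCR6pos, and 0, 146 and 291 CPM as lowest, median and highest in ND CXCR6pos. The 0 was ND CXCR6pos replicate 1, the shallowest library, in which a count of 0 allows a level of up to 148 CPM (3 counts). In CD-HFD CXCR6neg Egr1 had 63.4, 94.3 and 145 CPM, and in ND CXCR6neg 120.1, 140.0, 148 and 227 CPM. In CD-HFD spleen it had 12.6, 19.2 and 30.1 CPM, and in ND spleen 23.6, 13.7, 43.0, 13.8 and 6.27 CPM. By mean level ND CXCR6pos came first, then ND CXCR6neg, CD-HFD CXCR6neg, CD-HFD CXCR6pos, ND spleen and CD-HFD spleen. Again the only neighbours without overlap were CD-HFD CXCR6pos (85.2 ± 31.6 CPM, SD, n = 5) and ND spleen (20.1 ± 14.2 CPM, n = 5).

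Nr4a3 (chromosome 4, 48045153 to 48086447, plus strand), which codes for the receptor NOR1, was at the edge of detection, with 0 to 14 counts a library. It averaged 11.2 ± 11.9 CPM in CD-HFD CXCR6pos (SD, n = 5, 13 counts in all, 10 of them in replicate 4) and 21.5 ± 14.8 CPM in ND CXCR6pos (n = 6, 40 counts). The mean was 9.23 ± 5.63 CPM in CD-HFD CXCR6neg (n = 6, 13 counts) and 19.7 ± 16.0 CPM in ND CXCR6neg (n = 4, 17 counts), and spleen held 11 counts under CD-HFD and 3 under ND. The libraries of all groups overlapped. Nr4a3 did not pass the filter on low counts, so that 3 of the 4 genes were tested.

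**Figure D1:**
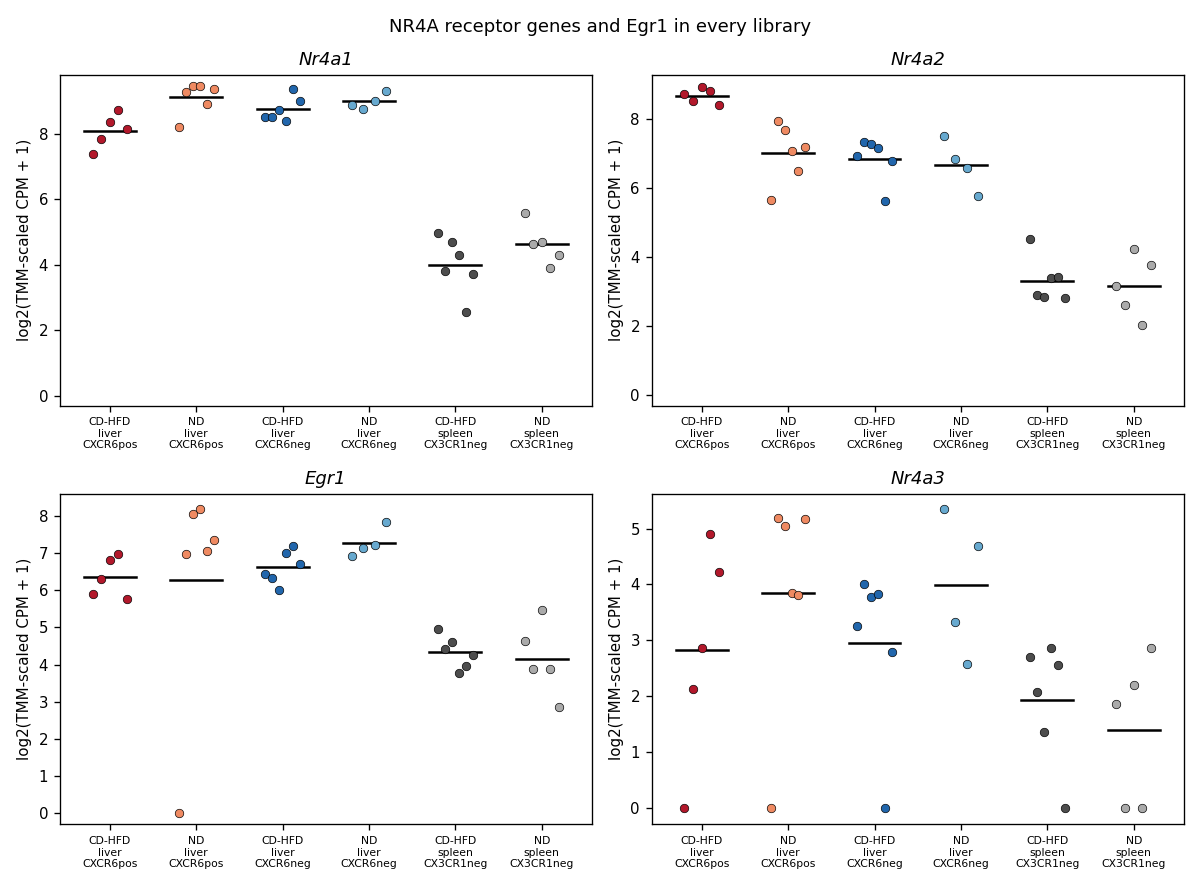
Each point is 1 library and each bar the mean of a group, on a scale of log2(TMM-scaled CPM + 1), for Nr4a1, Nr4a2, Egr1 and Nr4a3 in the 6 groups. Nr4a2 stood highest in the 5 CD-HFD liver CXCR6pos libraries (336 to 486 CPM), where Nr4a1 was lowest of the liver groups; the Egr1 bar of ND CXCR6pos is pulled down by the library at 0.

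The comparison of sorted liver fractions with spleen CX3CR1neg cells gave the largest differences of the 4 genes. Liver cells were gated on CXCR6 and spleen cells on CX3CR1, and no gate was shared. Tissue, sort gate and any difference in cell preparation between the organs therefore cannot be told apart. Under CD-HFD, Nr4a2 was 38.6-fold higher in liver CXCR6pos than in spleen (log2 fold change 5.27 ± 0.28, SE, edgeR quasi-likelihood test, adjusted p = 9.44e-18), the 4th largest of 770 increases. Nr4a1 was 15.0-fold higher (3.91 ± 0.30, adjusted p = 1.61e-11) and Egr1 4.23-fold higher (2.08 ± 0.34, adjusted p = 7.56e-06). All 3 genes rose with no overlap between libraries, where 12.5% of the 6174 genes tested were called higher.

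Under ND, liver CXCR6pos had 24.3-fold more Nr4a1 than spleen (4.60 ± 0.28, adjusted p = 1.42e-13), 19.5-fold more Nr4a2 (4.28 ± 0.38, adjusted p = 3.51e-11) and 9.74-fold more Egr1 (3.28 ± 0.31, adjusted p = 1.63e-10). These 3 of 3 stand against 7.43% of all genes called higher, and the libraries overlapped for Egr1 only, through the library at 0. In CXCR6neg cells the same genes rose against spleen. Under CD-HFD, Nr4a1 was 21.7-fold higher in CXCR6neg (4.44 ± 0.27, adjusted p = 2.23e-13), the 2nd largest of 354 increases. Nr4a2 was 11.8-fold higher (3.56 ± 0.34, adjusted p = 1.61e-10) and Egr1 4.44-fold higher (2.15 ± 0.32, adjusted p = 3.89e-06), against 5.73% of all genes called higher. Under ND the folds in CXCR6neg were 20.3 for Nr4a1 (4.35 ± 0.30, adjusted p = 3.65e-12), 13.1 for Nr4a2 (3.71 ± 0.45, adjusted p = 7.55e-08) and 8.33 for Egr1 (3.06 ± 0.35, adjusted p = 1.59e-08), against 4.73% called higher. No library overlapped with spleen in either CXCR6neg comparison. The comparisons under 1 diet share their spleen libraries, so that they are not independent of each other.

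Nr4a3 had higher counting ratios in liver than in spleen. Under ND its ratio of CXCR6pos to spleen was 16.5 (95% exact counting interval 5.26 to 83.5) and that of CXCR6neg to spleen 11.0 (3.19 to 58.7), over 3 counts in spleen. Under CD-HFD the ratio was 3.63 (1.50 to 8.94) for CXCR6pos and 2.86 (1.18 to 7.04) for CXCR6neg. Without CD-HFD CXCR6pos replicate 4 the ratio for CXCR6pos was 1.26 (0.226 to 4.78). In the edgeR fit without the filter on low counts, Nr4a3 was not called under CD-HFD (adjusted p = 0.0991 for CXCR6pos and 0.295 for CXCR6neg). These intervals cover counting error only.

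Many other immediate-early genes also differed between the liver fractions and spleen. Of 33 further immediate-early genes, 27 were tested, and in CXCR6pos against spleen 22 rose and 2 fell under CD-HFD (median log2 fold change 1.64) and 26 rose and 0 fell under ND (1.98). In CXCR6neg against spleen 24 rose under CD-HFD (1.99) and 26 under ND (2.06), and none fell in either, while the median of all genes was between -0.02 and 0.00. Under ND, Junb, a subunit of the AP-1 factor, rose by 4.12 ± 0.12 in CXCR6pos, Ppp1r15a, which directs a phosphatase to the translation factor eIF2α, by 4.09 ± 0.17, and the zinc-finger factor Klf6 by 2.85 ± 0.13 (log2). Heat-shock genes moved as well, with 7, 5, 7 and 5 of 10 tested called higher in CXCR6pos under CD-HFD and ND and in CXCR6neg under CD-HFD and ND, in that order, and 1 lower in the first. Their part in the difference of Nr4a1, Nr4a2 and Egr1 was not tested.

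Cell type markers also differed between the tissues. Summed markers of B cells ran from 229.9 to 741 CPM in CD-HFD CXCR6pos and from 1218 to 1531 CPM in CD-HFD CXCR6neg, against 2791 to 4014 CPM in CD-HFD spleen. Under ND they ran from 257 to 1316 CPM in CXCR6pos and from 814 to 1498 CPM in CXCR6neg, against 2153 to 2997 CPM in spleen. Erythroid markers were among the most abundant. They ran from 3654 to 10573 CPM in CD-HFD CXCR6pos and from 1731 to 9148 CPM in CD-HFD CXCR6neg, against 2345 to 5063 CPM in CD-HFD spleen, with overlap. Under ND they ran from 2258 to 6095 CPM in CXCR6pos and from 3900 to 9011 CPM in CXCR6neg, against 818 to 1954 CPM in spleen, without overlap. Of the 5 erythroid markers, all tested, 2 were called higher in CXCR6pos and 0 in CXCR6neg under CD-HFD, and 3 in each under ND. NK cell markers ran from 539 to 665 CPM in CD-HFD CXCR6neg, against 223 to 289 CPM in CD-HFD spleen, and from 299 to 574 CPM in ND CXCR6neg, against 212 to 278 CPM in ND spleen. In CXCR6pos they ran from 172 to 301 CPM under CD-HFD and from 170.2 to 478 CPM under ND, overlapping with spleen. The NK cell markers did not differ alike. Tyrobp averaged 366 CPM in CD-HFD CXCR6neg and 95.1 CPM in CD-HFD spleen, and Fcer1g 121 and 49.2 CPM. Klrb1c averaged 26.1 and 15.9 CPM in these groups, and Eomes 103 and 95.7 CPM. Ncr1 had no counts in CXCR6neg under either diet. Markers of plasmacytoid dendritic cells, all 7 of which were tested, were called higher in CXCR6neg than in spleen for 7 of 7 under CD-HFD and 6 of 7 under ND. T cell markers were called higher than in spleen for 5 of 7 in CD-HFD CXCR6pos and 4 of 7 in ND CXCR6pos. Neutrophil markers summed to 0 to 3.14 CPM in all libraries. The part of these cells in the result was not tested.

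**Figure D2:**
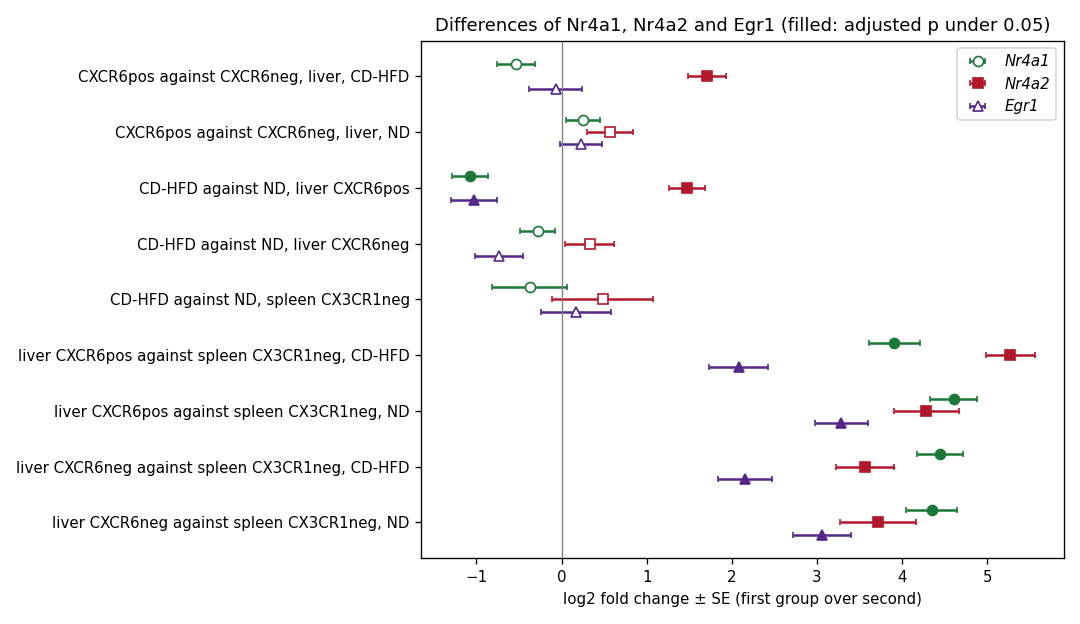
Log2 fold changes (x axis, bars ± SE) of Nr4a1, Nr4a2 and Egr1 in the 9 comparisons, first group over second; filled symbols had an adjusted p under 0.05. In the 4 comparisons with spleen all 3 genes lie between 2.08 and 5.27, while Nr4a2 alone lies to the right in CD-HFD CXCR6pos against CXCR6neg (1.71) and opposite to Nr4a1 and Egr1 in CD-HFD against ND CXCR6pos.

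Between the liver fractions under CD-HFD, Nr4a2 parted from the other genes. It averaged 410 ± 59.2 CPM in CXCR6pos (SD, n = 5) and 121 ± 40.4 CPM in CXCR6neg (n = 6), was 3.27-fold higher (log2 fold change 1.71 ± 0.22, adjusted p = 4.45e-07) and had no overlap between libraries. It was the only one of the 3 tested genes called, where 11.1% of all genes were called (4.76% higher and 6.38% lower). Nr4a1 averaged 285 ± 97.8 CPM in CXCR6pos and 441 ± 125 CPM in CXCR6neg (-0.54 ± 0.22, adjusted p = 0.128). It fell short of the threshold, but passed it without CD-HFD CXCR6pos replicate 4 (-0.81, adjusted p = 0.0171) and without the filter on low counts (-0.56, adjusted p = 0.0067). Egr1 averaged 85.2 ± 31.6 CPM in CXCR6pos and 101 ± 30.9 CPM in CXCR6neg (-0.07 ± 0.31, adjusted p = 0.937).

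Other genes of these pathways are set beside them by lists. Of the 27 immediate-early genes tested, 2 rose and 9 fell in CD-HFD CXCR6pos against CXCR6neg (median -0.28). Among those that fell were Klf2, a factor that maintains recirculation (-1.16 ± 0.12), Nfkbia, the NF-kB inhibitor (-0.95 ± 0.13), and Zfp36, which promotes decay of cytokine mRNAs (-0.83 ± 0.14). Genes raised by T cell receptor signalling were split, with 8 higher and 5 lower of 24 tested. That list shares 4 genes with the immediate-early list and 3 with the exhaustion list. It also shares Irf8, among the 5 lower, with the markers of plasmacytoid dendritic cells. Il2ra, which was not tested, is shared with the markers of CD4 and regulatory T cells. Eomes is on both the exhaustion list and the list of NK cell markers. Of those higher, Bhlhe40 codes for a transcription factor (1.07 ± 0.13) and Rgs1 for a regulator of G protein signalling (1.83 ± 0.22). Genes named with NR4A receptors in T cell exhaustion rose for 14 and fell for 3 of 20 tested, with a median of 1.18. They included the ectonucleotidase gene Entpd1 (1.91 ± 0.24). The calcium, calcineurin and NFAT list had 1 called gene of 11, Nfatc1, the NFAT family member NFATc1 (0.63 ± 0.20, adjusted p = 0.0211). The ERK and SRF list had 1 of 12, Dusp6, an ERK phosphatase (1.20 ± 0.31, adjusted p = 0.0035). The MEF2 and CREB list had 1 of 15, Prkacb, a catalytic subunit of protein kinase A (0.54 ± 0.19, adjusted p = 0.0498).

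Markers of other cells moved with this contrast. All 7 markers of plasmacytoid dendritic cells were called lower in CXCR6pos, with summed levels of 124 to 224 CPM in CD-HFD CXCR6pos and 789 to 1303 CPM in CD-HFD CXCR6neg, and Ccr9 at 0 in CXCR6pos. NK cell markers summed to 172 to 301 CPM in CXCR6pos and 539 to 665 CPM in CXCR6neg, and 2 of 4 tested were called lower. The largest of them in CXCR6neg were Tyrobp (mean 366 CPM) and Fcer1g (121 CPM), and Ncr1 had no counts in either fraction. B cell markers were called lower for 3 of 5. T cell markers were called higher for 4 of 7, with a median of 0.63, and summed to 9108 to 10021 CPM in CXCR6pos and 6418 to 6991 CPM in CXCR6neg. The part of the cell mixture in the Nr4a2 difference was not tested.

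Between the ND liver fractions none of the 3 tested genes was called by edgeR or DESeq2 (1 had an unadjusted p under 0.05), and 0.0324% of all genes were. That share stands for 2 genes, and 90 genes were called without the 2 libraries that went against their Cxcr6 label, Nr4a1, Nr4a2 and Egr1 not among them. Nr4a2 averaged 143 ± 71.2 CPM in ND CXCR6pos (SD, n = 6) and 110.0 ± 53.0 CPM in ND CXCR6neg (n = 4; log2 fold change 0.57 ± 0.27, adjusted p = 0.582). The differences were 0.25 ± 0.20 for Nr4a1 (adjusted p = 0.874) and 0.23 ± 0.25 for Egr1 (adjusted p = 0.935). These fractions also overlapped in Cxcr6, with 505 ± 238 CPM in CXCR6pos and 228 ± 169 CPM in CXCR6neg.

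The effect of the diet in CXCR6pos cells went in opposite directions among the 4 genes. Nr4a2 was 2.77-fold higher in CD-HFD CXCR6pos (410 ± 59.2 CPM, n = 5) than in ND CXCR6pos (143 ± 71.2 CPM, n = 6), with no overlap (log2 fold change 1.47 ± 0.21, SE, adjusted p = 2.27e-06). Nr4a1 was 2.10-fold lower under CD-HFD (285 ± 97.8 CPM, against 576 ± 160 CPM under ND; -1.07 ± 0.21, adjusted p = 0.000586). Egr1 was 2.05-fold lower (85.2 ± 31.6 CPM under CD-HFD and 162 ± 105 CPM under ND; -1.03 ± 0.27, adjusted p = 0.00738). The libraries overlapped for Nr4a1 and Egr1, in both through ND CXCR6pos replicate 1 alone, the shallowest library. The next lowest ND library had 479 CPM of Nr4a1, against at most 424 CPM under CD-HFD. For Egr1 these values were nearly equal, at 124.3 and 124.1 CPM. All 3 tested genes were called, where 11.3% of all genes were (4.84% higher and 6.45% lower). The calls of Nr4a1 and Egr1 were lost when the identical columns were kept in their labelled groups (adjusted p = 0.0856 for Nr4a1 and 0.123 for Egr1). Those calls were also lost with the counts kept in ND liver CXCR6neg alone (0.0945 and 0.132). In both settings the log2 fold changes were at -1.07 and -1.03. Both settings put these counts into ND liver CXCR6neg. Their Nr4a1 level was 19.0 CPM without TMM scaling, against 392 CPM or more in the other libraries of that group. With the counts kept in ND spleen alone, both calls held. Nr4a3 had a ratio of 0.524 (95% counting interval 0.257 to 1.00) of CD-HFD to ND CXCR6pos, and one of 0.182 (0.0361 to 0.573) without CD-HFD CXCR6pos replicate 4, which held 10 of the 13 counts. These intervals cover counting error only. In the edgeR fit without the filter on low counts, Nr4a3 was not called here (-1.01 ± 0.51, adjusted p = 0.460).

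The direction of Nr4a1 and Egr1 was that of most immediate-early genes called. In CD-HFD against ND CXCR6pos, 13 of 27 fell and 2 rose, with a median of -0.51 and a median of all genes of -0.00. The AP-1 subunit gene Fos fell by 1.76 ± 0.20, Klf2 by 1.45 ± 0.12, Zfp36 by 1.20 ± 0.14 and its relative Zfp36l1 by 0.95 ± 0.15 (log2). The 2 that rose, named after their values were seen, were the stress-response gene Ier3 (2.01 ± 0.27) and the MAP kinase phosphatase gene Dusp1 (0.82 ± 0.18). Summed over the list, immediate-early RNA ran from 13564 to 15316 CPM in CD-HFD CXCR6pos, and in ND CXCR6pos from 12556 to 20787 CPM. Of 10 heat-shock genes tested only Hspa1a, an inducible HSP70 chaperone gene, was called, and it fell by 2.15 ± 0.49.

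The direction of Nr4a2 was that of other genes. Of 20 exhaustion genes named with NR4A receptors, 15 rose and 1 fell, with a median of 2.01; the one that fell was Tcf7, which codes for TCF1 (-2.05 ± 0.20). Pdcd1, the gene of the inhibitory receptor PD-1, rose by 3.38 ± 0.25, and Tox, which codes for a transcription factor of exhausted T cells, by 2.40 ± 0.23 (log2). Genes raised by T cell receptor signalling were divided, with 7 higher and 10 lower of 24. Rgs16 (2.92 ± 0.28) and Batf (1.97 ± 0.18) rose, whereas the cytokine gene Tnf fell by 3.16 ± 0.40. Of the MEF2 and CREB list 2 of 15 rose and none fell, namely Crem, a CREB relative (1.51 ± 0.30, adjusted p = 5.71e-05), and Mef2d (1.23 ± 0.41, adjusted p = 0.0313). Of the calcium, calcineurin and NFAT list Nfatc1 rose (0.86 ± 0.20, adjusted p = 0.000678), as 1 of 11. Of the 12 ERK and SRF genes tested none was called. Of the relatives and corepressors of Egr1 1 was tested, the corepressor gene Nab1 (0.50 ± 0.29, adjusted p = 0.317), and no RXR gene passed the filter.

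Beside these changes, T cell markers were called higher under CD-HFD for 3 of 7 in CXCR6pos and summed to 9108 to 10021 CPM in CD-HFD CXCR6pos and 5367 to 8585 CPM in ND CXCR6pos. Of the 4 NK cell markers tested 1 was higher and 3 were lower. The higher one was Eomes, which is also on the exhaustion list. In CD-HFD CXCR6pos, Tyrobp averaged 28.7 CPM and Fcer1g 22.1 CPM, and Ncr1, Klra4 and Klra8 had no counts. Of the 4 markers of CD4 and regulatory T cells 1 was tested and it rose, and they summed to 82.7 to 107 CPM in CD-HFD CXCR6pos and 17.6 to 49.2 CPM in ND CXCR6pos. None of 7 markers of plasmacytoid dendritic cells was called, with 124 to 224 CPM in CD-HFD CXCR6pos and 98.5 to 903 CPM in ND CXCR6pos. Their part in the diet difference was not tested.

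**Figure D3:**
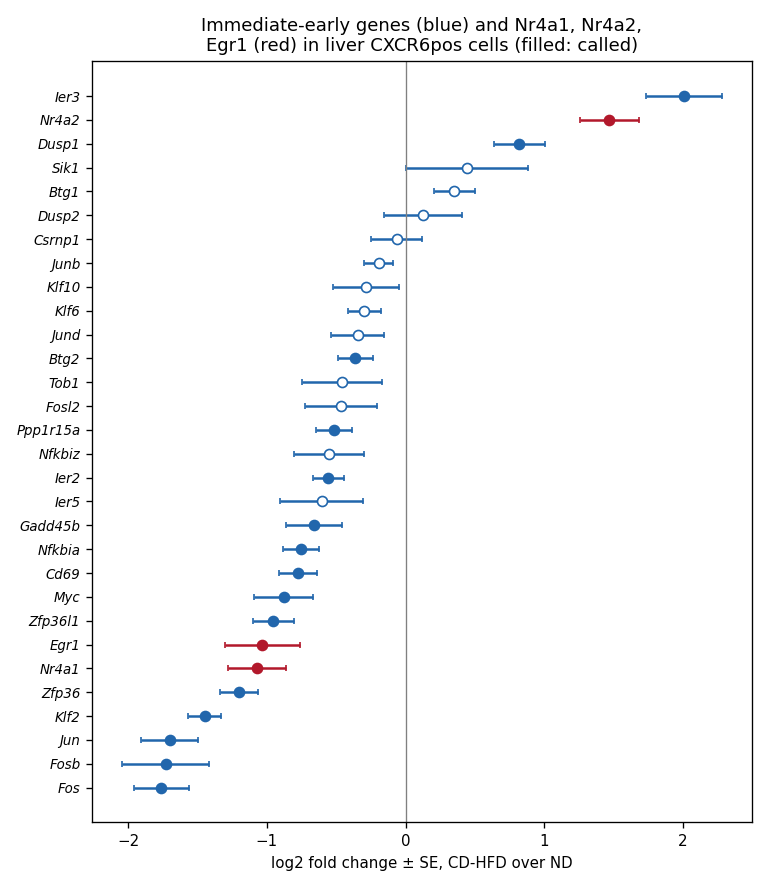
Log2 fold changes (x axis, bars ± SE) of CD-HFD over ND in liver CXCR6pos cells for the 27 immediate-early genes tested (blue) and Nr4a1, Nr4a2 and Egr1 (red); filled points had an adjusted p under 0.05. Nr4a1 (-1.07) and Egr1 (-1.03) lie among the 13 genes that fell, and Nr4a2 (1.47) lies between Ier3 and Dusp1, the 2 that rose.

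In the CXCR6neg fraction none of the 3 tested genes was called between the diets by edgeR or DESeq2 (1 had an unadjusted p under 0.05), where 0.47% of all genes were. Nr4a1 averaged 441 ± 125 CPM under CD-HFD (SD, n = 6) and 513 ± 86.7 CPM under ND (n = 4; log2 fold change -0.28 ± 0.21, adjusted p = 0.804). Nr4a2 was at 121 ± 40.4 CPM under CD-HFD and 110.0 ± 53.0 CPM under ND (0.33 ± 0.28, adjusted p = 0.853). Egr1 was at 101 ± 30.9 CPM under CD-HFD and 159 ± 46.8 CPM under ND (-0.74 ± 0.28, adjusted p = 0.366). Of the 27 immediate-early genes 3 fell, and of the 20 exhaustion genes 5 rose. Without ND CXCR6neg replicate 4, 0 immediate-early genes fell and 2 exhaustion genes rose, and without ND CXCR6neg replicate 3 these counts were 1 and 4. Without ND CXCR6neg replicate 5 they were 3 and 3. With the identical columns kept in ND CXCR6neg, 0 immediate-early genes fell and 7 exhaustion genes rose.

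In the spleen none of the 3 genes was called either by edgeR or DESeq2, at an adjusted or unadjusted p under 0.05, and 0.0324% of all genes were. Nr4a1 averaged 17.3 ± 9.25 CPM under CD-HFD (SD, n = 6) and 25.8 ± 12.8 CPM under ND (n = 5; -0.37 ± 0.44). Nr4a2 was at 9.96 ± 6.09 CPM under CD-HFD and 9.30 ± 5.99 CPM under ND (0.48 ± 0.59), and Egr1 at 19.9 ± 6.37 CPM and 20.1 ± 14.2 CPM (0.17 ± 0.41). The adjusted p rounded to 1.00 for each. These levels came from 1 to 22 counts a library, so that moderate differences were not detectable at this depth.

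Whether the diet effect differed between fractions was tested by interaction, in which none of the 3 genes was called by edgeR or DESeq2. Between CXCR6pos and CXCR6neg, the diet effect on Nr4a2 differed by 1.14 ± 0.36 (log2, unadjusted p = 0.00301, adjusted p = 0.112) and that on Nr4a1 by -0.79 ± 0.30 (unadjusted p = 0.0129, adjusted p = 0.242), where 1.44% of all genes were called. For Egr1 the difference was -0.30 ± 0.39 (adjusted p = 0.884). The interaction of Nr4a2 passed the threshold without ND CXCR6pos replicate 2 (1.27, adjusted p = 0.0329), without ND CXCR6neg replicate 5 (1.37, adjusted p = 0.0212), with the replicate number as a block (1.05, adjusted p = 0.0359) and without the filter on low counts (1.09, adjusted p = 0.0149). The interaction of Nr4a1 passed it without the filter (-0.83, adjusted p = 0.0123). Between CXCR6pos and spleen the differences were 0.99 ± 0.70 for Nr4a2 (adjusted p = 0.578), -0.70 ± 0.49 for Nr4a1 (0.582) and -1.20 ± 0.50 for Egr1 (adjusted p = 0.210), where 3.98% of all genes were called. Between CXCR6neg and spleen they were 0.09 ± 0.46 for Nr4a1, -0.15 ± 0.60 for Nr4a2 and -0.91 ± 0.50 for Egr1, and edgeR called 0% of all genes, against 319 at an unadjusted p under 0.05 and 2 by DESeq2.

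The balance of the 2 main receptors was different in 1 group. Nr4a2 made up 71.7%, 61.6%, 60%, 51% and 54.3% of the summed Nr4a1 and Nr4a2 counts in the CD-HFD CXCR6pos libraries, against 14.3%, 16.9% and 28.1% as lowest, median and highest in ND CXCR6pos. In CD-HFD CXCR6neg the share was 6.78%, 25.7% and 30.2%, and in ND CXCR6neg 27.6%, 20.7%, 15.6% and 7.73%. Nr4a2 thus had more counts than Nr4a1 in each of the 5 CD-HFD CXCR6pos libraries, and Nr4a1 had more in each of the other 16 liver libraries. The exact 95% binomial interval of the share reached below 50% in CD-HFD CXCR6pos replicate 4 (45.2% to 56.8%) and replicate 5 (36.6% to 71.2%), so that counting error leaves the order of the pair undecided there, and in ND CXCR6pos replicate 1 (0.361% to 57.9%) it reached above 50%. In spleen the share ran from 20% to 66.7% under CD-HFD and from 14.3% to 41.7% under ND, on few counts. The counts are 3′ tags, so that the share does not scale with transcript length.

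**Figure D4:**
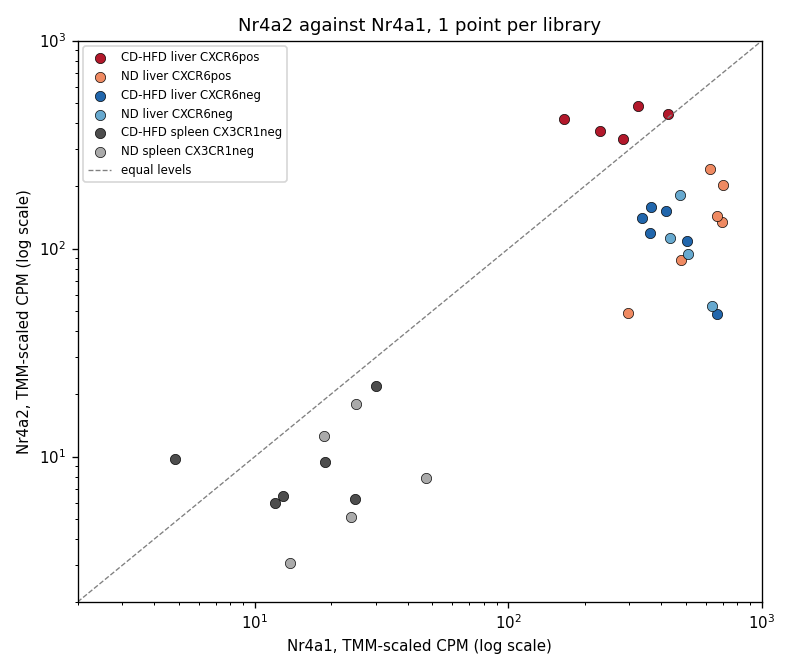
TMM-scaled CPM of Nr4a2 (y axis) against Nr4a1 (x axis), both on a log scale, 1 point per library in the 6 groups, with a dashed line of equal levels. The 5 CD-HFD liver CXCR6pos libraries lie above the line and the 16 other liver libraries below it, and all but 1 spleen library lie below it, with 21.9 CPM of Nr4a2 as the highest spleen level.

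Genes with the most similar levels over the 6 groups were sought among 5598 tested genes, by the root mean square difference between centred group means of log2 CPM. For Nr4a1 they were Junb (0.344), Fos (0.349), Ppp1r15a (0.397), Jun, another AP-1 subunit (0.443), and Tnfaip3, an inhibitor of NF-kB signalling (0.463). For Nr4a2 they were Rgs1 (0.138), Bhlhe40 (0.276), the protease gene Gzmb (0.364) and the chemokine genes Ccl4 (0.407) and Ccl3 (0.457). The genes nearest to Nr4a1 and to Nr4a2 did not overlap, and the 2 receptors differed from each other by 0.995.

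For Egr1 the nearest were the activation marker gene Cd69 (0.252), Ier2 (0.260), Ube2s (0.283), Csrnp1 (0.290) and Snord13 (0.295). That list depends on shallow libraries. Without the 2 shallowest libraries, left out together, only 1 of the 5 remained for Egr1, whereas 5 remained for Nr4a1 and 4 for Nr4a2. The genes nearest to Nr4a3, led by Rora (0.155), also kept 1 of 5, and at so few counts its profile is flattened by the prior count. The likeness describes 6 group means and has no test.

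**Figure D5:**
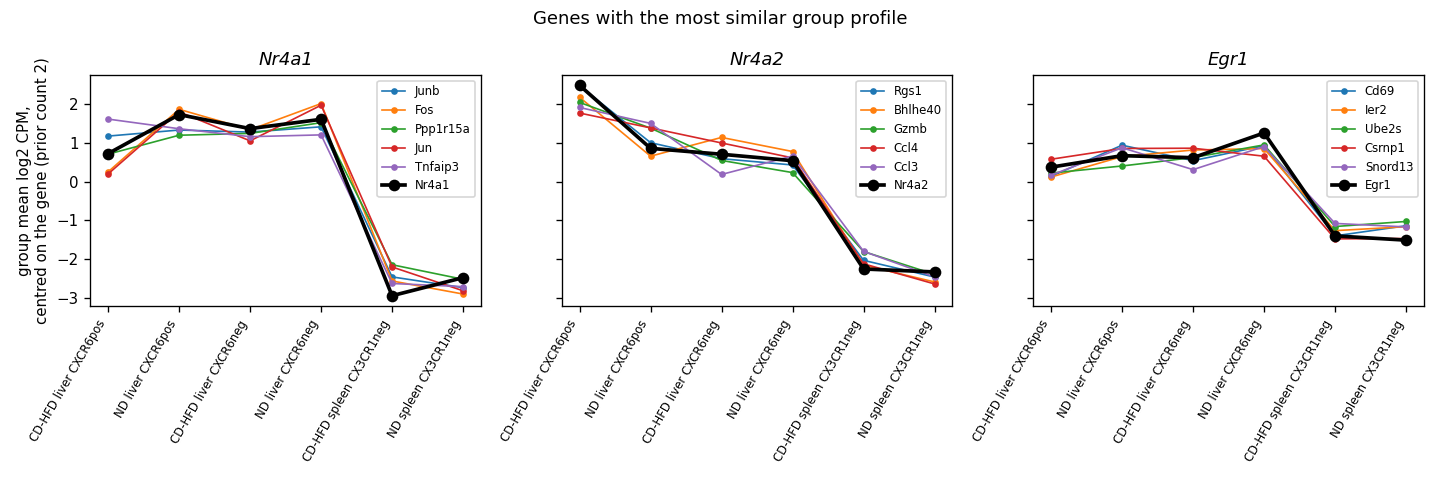
Group means of log2 CPM (prior count 2), centred on the mean of each gene, for Nr4a1, Nr4a2 and Egr1 (black) and the 5 genes nearest to each (colours) in the 6 groups. The genes near Nr4a1 dip in CD-HFD liver CXCR6pos relative to ND except Tnfaip3, those near Nr4a2 peak there, and all 3 sets are low in spleen.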

How the data were processed

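Polyadenylated RNA of sorted cells was sequenced from its 3′ end with barcoded oligo-dT primers that carry molecular identifiers, per the labels' protocols. The authors deposited raw counts, whole numbers for each gene symbol. Build GRCm38.p6 and DESeq2 1.14.1 are named in the submitters' processing notes. The aligner, counter and annotation, the strand setting and the collapsing of identifiers were not given in the sources used here, so that intervals and floors cover counting error only and overlapping antisense genes cannot be told apart.

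Of 35 labelled samples, 34 matched a column by name. Replicate 6 of CD-HFD liver CXCR6pos was not analysed here, and 1 column of no sample was not used. The 2 identical columns were left out, which left 32 libraries.

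Genes were filtered with filterByExpr by group (6174 kept), scaled by TMM and compared in edgeR 4.0.16 (R 4.3.3) by its quasi-likelihood test with robust estimation, in a single fit of the 6 groups without a block. Benjamini-Hochberg adjustment covered all genes tested, and calls have an adjusted p under 0.05. A standard error is the size of the log2 fold change over the square root of the F statistic. The script was tested on simulated data. DESeq2 1.42.0, other scaling, filters and sample sets were alternatives.

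The genes, the lists and the alternatives were chosen with earlier results of these data known, so that a list's counts are a description. From each list up to 4 genes with the smallest p-values were named, except where stated. The 5 genes nearest to each of the 4 were sought among those with at least 20 CPM in their highest group, with a prior count of 2. Of the list symbols, Egr4, Rxrg, Mrtfa and Vsig4 were not found by name, and Mrtfb was matched as Mkl2. Coordinates are 1-based.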

Additional observations from a re-analysis of the deposited data

Results flagged for a closer look

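Nr4a2 in CD-HFD spleen replicate 1 stood apart from the other libraries of its group, at 21.9 CPM with the next highest at 9.71 CPM. The gap was 0.767 of the range of the group. In all, 24 sets of libraries (4 genes in 6 groups) were examined for such a library and 1 was found, while chance marks about 1 in 20. The level rests on 16 counts. Without that library the log2 fold change of Nr4a2 between the diets in spleen was -0.069, against 0.48 with it, and neither was called.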

How the results depend on the processing

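Over the alternatives other than leaving out 1 library, 381 values of Nr4a1, Nr4a2 and Egr1 kept their direction and their side of the threshold, 4 newly passed it, 4 no longer did and 4 changed sign. With 1 library left out, 466 kept both, 3 newly passed and 11 changed sign. All 3 genes were called higher in liver than in spleen in each of those fits. Nr4a3 was tested without the filter on low counts, with the filter of 20 CPM in 4 libraries and without ND CXCR6neg replicate 3 or 5. Without the filter it was called higher under ND in CXCR6pos (3.71 ± 0.64, edgeR, adjusted p = 9.4e-07) and CXCR6neg (3.16 ± 0.75, adjusted p = 0.00258) than in spleen. With the filter of 20 CPM it was called in the same 2 comparisons, and in CXCR6neg it was called without replicate 3 (3.37, adjusted p = 0.00647) but not without replicate 5 (2.90, adjusted p = 0.0596).

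In CD-HFD CXCR6pos against CXCR6neg, 2 genes were called without the filter, against 1, and 1 to 2 with 1 library left out. In CD-HFD against ND CXCR6pos, 1 gene, Nr4a2, was called with the identical columns kept in both groups or in ND CXCR6neg, against 3, and always 3 with 1 library left out. In the interaction of diet and CXCR6 fraction, 2 were called without the filter and 0 to 1 with 1 library left out, against 0. Over 73 pairs of libraries with the same replicate number, the correlation of deviations from group means ran from -0.0621 to 0.0840. Counting noise in shallow libraries lowers such correlations, and pairs with different numbers were not computed. These values therefore cannot tell whether libraries with the same number share an animal. With the replicate block 1 gene, Nr4a2, was called in that interaction (1.05, adjusted p = 0.0359), and no other call on the 3 genes changed.

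Values that changed sign were all outside the threshold. With the identical columns kept in both groups or in ND CXCR6neg, Nr4a1 between the diets in CXCR6neg was at 0.11 and 0.10, and the interaction of Nr4a2 between CXCR6neg and spleen was at 0.27 and 0.31. With 1 library left out (without each replicate in turn), Egr1 ran from -0.30 to 0.042 in CD-HFD CXCR6pos against CXCR6neg. Between the diets in spleen, Nr4a2 ran from -0.069 to 0.84 and Egr1 from -0.0027 to 0.50. The interaction between CXCR6neg and spleen ran from -0.51 to 0.41 for Nr4a2 and from -0.22 to 0.36 for Nr4a1. The cause was not tested.

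Of the immediate-early genes, 3 fell between the diets in CXCR6neg and 0 did so without the 2 libraries that went against their Cxcr6 label or with the identical columns kept in ND CXCR6neg. Leaving libraries out of the Nr4a3 ratios and of the likeness was chosen after seeing the data. Depth limits Nr4a3 in every group and all 4 genes in spleen. Of all genes tested, the number called moved by over 1.5 times in 6 of the comparisons. It was 2 (0 to 90 over the alternatives) for CXCR6pos against CXCR6neg on ND, with 90 without the 2 libraries against their Cxcr6 label, 29 (8 to 55) for CD-HFD against ND in CXCR6neg cells, 2 (0 to 8) for diet in spleen, 424 (209 to 445) for CXCR6neg cells against spleen on ND, 89 (53 to 109) for the interaction of diet and CXCR6 fraction, and 0 (0 to 8) for that of diet in CXCR6neg cells and spleen.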

Other observations

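The counts found under both labels, replicate 1 of ND liver CXCR6neg and replicate 6 of ND spleen (527632 in total), gave 19.0 CPM of Nr4a1, 5.69 CPM of Nr4a2, 1.90 CPM of Nr4a3 and 11.4 CPM of Egr1, without TMM scaling, from 10, 3, 1 and 6 counts. On the same unscaled CPM, the Nr4a1 level lay below the lowest of the 4 other ND liver CXCR6neg libraries (392 CPM) and within the range of the 5 other ND spleen libraries (13.1 to 42.1 CPM). Which label is right was not tested.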
